A study of Mus musculus with 24 samples.

Results

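Immature megakaryocytes (iMK) held 8426 chromatin elements that were called in no other primary population, out of 98592 iMK elements and 203413 elements of the 10 primary populations. These iMK-only elements were defined by the peak calls themselves. A peak was kept where it overlapped, by at least 1 bp, a peak of the other library of its population, the kept peaks of the 10 primary populations were merged by 1 bp overlap, and an element was taken where iMK and none of the other 9 populations called it. They made up 8.55% of the iMK elements, and the other 90166 iMK elements were shared with at least 1 further population. Because the calls chose the elements, their number, their peak scores and the peaks of the other primary libraries within them are descriptions and carry no test.

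The study mapped accessible chromatin by ATAC-seq, in which a transposase inserts sequencing adapters into open DNA, along the blood lineages of adult C57BL6 mice. The primary populations, with 2 libraries each, were iMK, which the labels call megakaryocyte, LSK (Lin-, Sca1+, cKit+ cells), CFUMK (the colony forming unit megakaryocyte), the common myeloid (CMP), granulocyte monocyte (GMP) and megakaryocyte erythrocyte (MEP) progenitors, CFUE (the colony forming unit erythroid), ERY (erythroblasts), MON (monocytes) and NEU (neutrophils). All came from bone marrow except MON and NEU, which came from peripheral blood, and no genetic change or treatment is given for any of them. The remaining 4 libraries came from G1E, a cultured Gata1-null erythroid line, and from G1E-ER4+E2, its derivative in which estradiol switches on a restored GATA1-estrogen receptor fusion. These lines stand for erythroid cells and not for megakaryocytes, and their libraries were not used to choose the elements. The sources do not say for each population whether its libraries came from separate mice.

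Megakaryocytes arise from stem cells and myeloid progenitors, grow large polyploid nuclei and shed platelets into the blood. Their genes are read under GATA1, FLI1, ERG, RUNX1 and NFE2, whereas the ETS-family protein PU.1, encoded by Spi1, and the CEBP proteins direct granulocyte and macrophage genes. Distal elements opened by such factors often carry their short recognition sequences, and a promoter element lies at a transcript start.

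The sequences of 8 iMK-only elements are printed, all from mm10 (GRCm38.p6), plus strand. They are the 4 highest distal elements with a PU.1 sequence, and the elements at 4 neutrophil genes. Capitals mark matches, on either strand, to the PU.1 sequence GAGGAAGT and to 7 other motifs. The GATA sequence was AGATAA or TGATAA. The RUNX sequence was TGTGGTT, and AP-1 was searched as TGANTCA. The CEBP sequence was TTGCGCAA or TTGTGCAA and the KLF/SP sequence CCNCNCCC. The T-box sequence was AGGTGTGA, and that of TCF/LEF was CTTTGAT. A match is a description of the letters and not a bound site. Overlapping matches share their capitals.
Acod1 intron, chr14:103048427-103048577: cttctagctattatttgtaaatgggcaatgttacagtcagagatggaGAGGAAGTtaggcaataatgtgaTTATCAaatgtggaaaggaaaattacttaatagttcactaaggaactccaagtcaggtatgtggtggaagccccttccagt
Element nearest to Irf2bp2, chr8:126573155-126573364: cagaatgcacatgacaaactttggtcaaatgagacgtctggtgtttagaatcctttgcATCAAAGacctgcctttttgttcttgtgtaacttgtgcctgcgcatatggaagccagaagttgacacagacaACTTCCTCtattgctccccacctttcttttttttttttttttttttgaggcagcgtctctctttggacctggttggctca
Element nearest to Slc17a9, chr2:180732130-180732298: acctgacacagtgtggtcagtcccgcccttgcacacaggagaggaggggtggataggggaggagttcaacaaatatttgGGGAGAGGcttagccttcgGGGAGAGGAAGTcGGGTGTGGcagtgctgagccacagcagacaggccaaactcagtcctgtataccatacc
Sdccag8 intron, chr1:176827038-176827193: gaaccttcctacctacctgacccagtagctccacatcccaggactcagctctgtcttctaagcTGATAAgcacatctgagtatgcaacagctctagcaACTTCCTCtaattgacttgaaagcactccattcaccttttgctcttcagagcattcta
Ly6g promoter, chr15:75155133-75155367: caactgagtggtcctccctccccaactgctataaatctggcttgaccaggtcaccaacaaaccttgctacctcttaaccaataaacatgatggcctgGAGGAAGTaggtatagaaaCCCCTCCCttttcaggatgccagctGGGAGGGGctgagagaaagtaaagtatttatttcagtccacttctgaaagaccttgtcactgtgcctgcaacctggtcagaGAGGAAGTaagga
Retnlg promoter, chr16:48872539-48872826: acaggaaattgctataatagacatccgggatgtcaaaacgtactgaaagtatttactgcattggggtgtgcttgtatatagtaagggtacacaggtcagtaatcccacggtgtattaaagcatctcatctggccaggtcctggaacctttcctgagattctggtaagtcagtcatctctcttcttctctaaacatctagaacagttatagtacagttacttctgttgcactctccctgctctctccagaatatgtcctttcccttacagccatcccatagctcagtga
Element nearest to Camp, chr9:109854485-109854642: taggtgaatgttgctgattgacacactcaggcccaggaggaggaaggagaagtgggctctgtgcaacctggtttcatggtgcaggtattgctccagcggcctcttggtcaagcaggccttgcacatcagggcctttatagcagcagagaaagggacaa
Mmp9 intron, chr2:164946952-164947110: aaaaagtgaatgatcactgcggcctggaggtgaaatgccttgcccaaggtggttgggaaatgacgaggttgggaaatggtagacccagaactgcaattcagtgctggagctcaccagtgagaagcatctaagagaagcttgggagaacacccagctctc

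The Acod1, Irf2bp2, Slc17a9 and Sdccag8 elements each held 1 PU.1 match, and the Ly6g promoter element held 2, starting at positions 98 and 223 from its first base. A GATA match stood beside the PU.1 match in the Acod1 and Sdccag8 elements. The Retnlg, Camp and Mmp9 elements held no match to any of the 8 motifs.

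Most iMK-only elements were weak peaks. The peak score, a value that the files give for each peak without naming its unit, had a median of 4.17 in iMK replicate 1 and 4.28 in iMK replicate 2 over the iMK-only elements, against 11.3 and 12.1 over the shared iMK elements. Ranked among all peaks of its own library, the median iMK-only element stood at percentile 29.8 and 37.0, and the median shared element at 65.6 and 70.5. The scores of the iMK-only elements ran from 1.64 to 73.3 in replicate 1 and from 1.59 to 51 in replicate 2, so a small number were strong. Scores of different libraries are given side by side and not ranked against each other, since their unit is not stated and their steps differ. The elements were also narrow, with a median width of 177 bp against 303 bp for the shared elements, where a single peak was at most 150 bp wide.

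**Figure D1:**
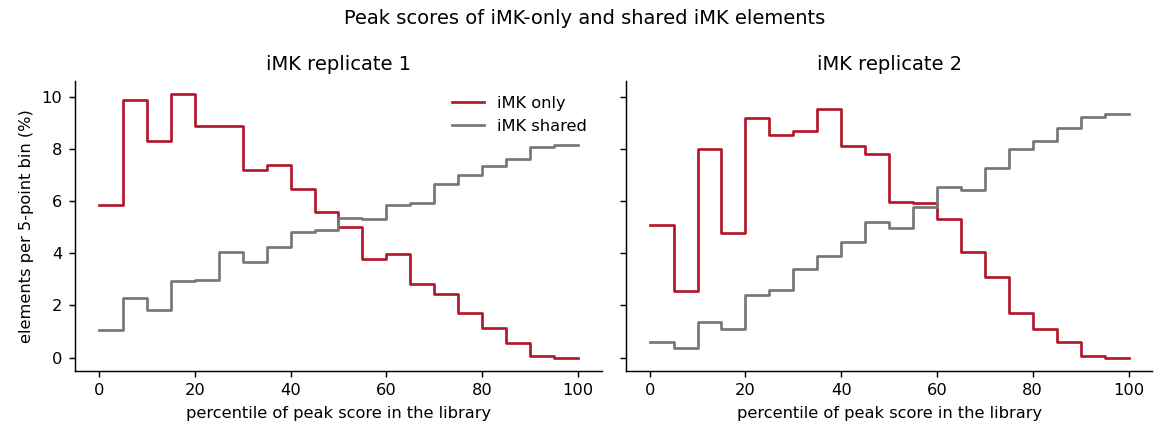
Percentile of the peak score within its library (x axis, 0 to 100) for iMK-only and shared iMK elements, as percent of elements per bin (y axis), in each iMK library. The iMK-only elements lie mostly in the lower ranks, with median percentiles of 29.8 and 37.0 against 65.6 and 70.5 for the shared elements.

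Low rank was common to elements called in 1 population. The own elements of the other 9 populations had median percentiles between 19.5, in CFUMK replicate 2, and 61.7, in NEU replicate 1. By number, iMK with 8426 came after GMP with 12054 and just before MEP with 8304, and the fewest were in NEU, with 2399. As a share of all elements of the population, the iMK value of 8.55% lay within the 4.07% (CFUMK) to 10.8% (MEP) of the others.

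The rule left out peaks on both sides of its limits. The iMK libraries held 172141 and 196339 peaks, of which 82.5% and 72.8% overlapped a peak of the other. Just outside the rule, 15288 and 27508 peaks of 1 iMK library lay in no primary element and had median scores of 2.78 and 2.39, while the peaks inside the iMK-only elements had medians of 3.92 and 3.98. With the peaks of iMK replicate 2 alone standing for iMK (without iMK replicate 1) the count was 34351, and with those of replicate 1 alone it was 23334. On the other side of the limit, 6915 elements were called in iMK and exactly 1 other population. That population was GMP for 3715 of them, MON for 880, CFUMK for 875, CMP for 506 and NEU for 505. It was LSK, MEP, CFUE or ERY for 55 to 215 each. All elements called numbered 114616 for GMP, 52840 for MON, 124663 for CFUMK, 109075 for CMP and 43895 for NEU. For LSK, MEP, CFUE and ERY they ran from 42215 to 77175.

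Absence of a reproducible call did not mean absence of any peak. Of the 8426 iMK-only elements, 2460 (29.2%) held no peak of any of the 18 other primary libraries, 2743 held a peak of exactly 1 and 1740 of exactly 2. A single GMP library, replicate 1, had a peak in 2552 of them (30.3%), against 439 (5.21%) in GMP replicate 2. Likewise LSK replicate 1 had a peak in 1670 (19.8%), against 220 (2.61%) in LSK replicate 2. Over all primary elements, any peak of GMP replicate 1 was found in 65.9% and any peak of LSK replicate 1 in 54.7%. Together the 2 libraries reached 3677 iMK-only elements (43.6%). In the own elements of the other populations they averaged 13.9% and 9.62%. A high share of these libraries was not particular to iMK. GMP replicate 1 had a peak in 35.7% of the CFUMK-only, 29.0% of the CMP-only and 21.8% of the LSK-only elements, against 4.51%, 4.04% and 3.17% for GMP replicate 2. LSK replicate 1 had a peak in 24.7% of the CMP-only elements, against 11.6% for LSK replicate 2.

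**Figure D2:**
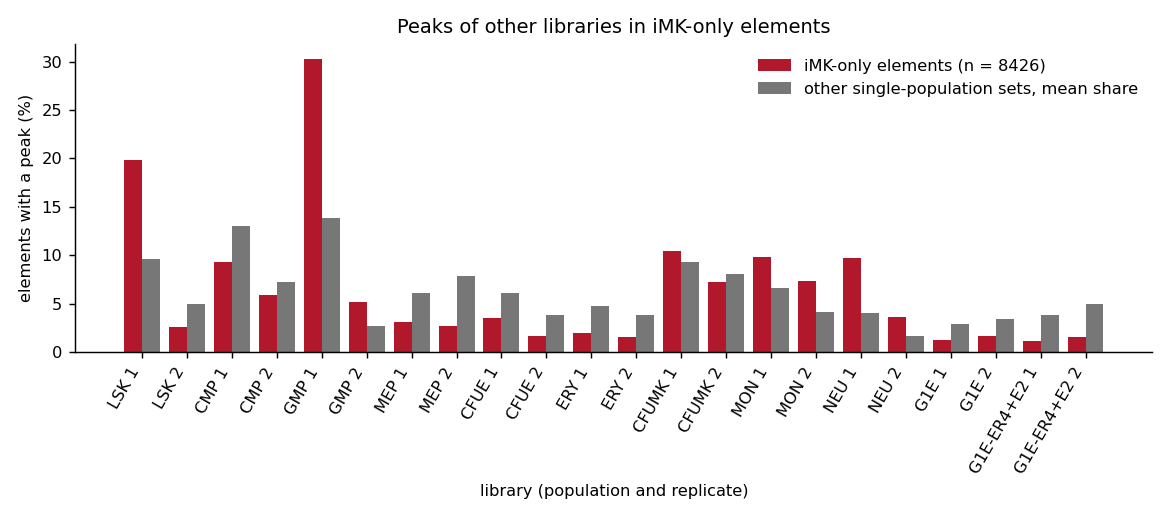
Percent of elements with any peak of each library (y axis) for the iMK-only elements and, as a mean, for the own elements of the other populations, by library (x axis). The bars of GMP replicate 1 (30.3%) and LSK replicate 1 (19.8%) stand above those of their partner libraries (5.21% and 2.61%).

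The remaining primary libraries had a peak in 1.59% (ERY replicate 2) to 10.5% (CFUMK replicate 1) of the iMK-only elements. In CFUMK, the stage before iMK in the lineage, the shares were 10.5% and 7.20%, in MON 9.87% and 7.39%, and in MEP 3.12% and 2.72%. Over all primary elements CFUMK had a peak in 68.0% and 66.1%, MON in 34.0% and 31.6%, and MEP in 42.4% and 43.9%. In the own elements of the other populations the averages were 9.29% and 8.04% (CFUMK), 6.66% and 4.20% (MON), and 6.09% and 7.84% (MEP). GMP replicate 1 was the deepest primary library by the step between its score values, and iMK reached 72.3% and 91.8% of that depth, GMP replicate 2 78.6%, LSK 57.3% and 57.0%, and the primary libraries as a whole 40.2% to 100%. The LSK libraries also differed in the number of peaks, with 200857 in replicate 1 and 135309 in replicate 2, and in their share of the shared iMK elements, with 82.6% and 59.6%. Their library numbers in the labels lie far apart, and the part of either in the difference was not tested. Without LSK replicate 2, when replicate 1 alone stands for LSK, the count of iMK-only elements was 6773, and without GMP replicate 2 the count was 5905.

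The iMK-only elements lay mostly away from promoters. Within 1 kb of an annotated transcript start were 1142 of 8426 (13.6%, exact Clopper-Pearson 95% interval 12.8% to 14.3%, for counting error only), against 30.0% of the shared iMK elements and 23.0% of all primary elements. Introns held 3763 (44.7%) and intergenic DNA 3110 (36.9%), and coding exons, UTRs and other exons held 1.83%, 1.64% and 1.41%. The median distance to the nearest transcript start was 10642 bp, against 4944 bp for the shared elements. The own elements of the other populations had promoter shares that averaged 17.1% ± 4.37 (SD over 9 sets) and ran from 13.5% to 27.0%. The difference of -3.55 points gave p = 0.4 in a two-sided exact permutation test of 1 set against 9, for which 0.100 is the smallest p. Over chromosomes with more than 1000 primary elements the iMK-only share ranged between 3.31% on X and 4.72% on 1.

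Part of the iMK-only elements stood beside an element of other populations. Of all of them, 3359 (39.9%) had their centre within 1000 bp of the centre of a primary element called elsewhere, and 889 (10.6%) within 300 bp. Of the 586 elements within 500 bp of a protein-coding start, 420 (71.7%) had such a neighbour within 1000 bp. Within 400 bp the number was 236 (40.3%). Of the 7284 distal elements, 36.0% had one within 1000 bp. The other 5067 iMK-only elements lay over 1 kb from any other primary element. Another iMK-only element lay within 1000 bp of 764 (9.07%) and within 10 kb of 2057 (24.4%). These distances were not measured for the shared elements or the other single-population sets, so the shares have no background beside them.

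The highest promoter element lay 11 bp from the start of Midn, which encodes midnolin. Its scores were 73.3 and 49.6 in iMK, and it held peaks of GMP replicate 1 (30.1), LSK replicate 1 (20.1) and CMP replicate 2 (18.2) but none of their partner libraries. Its centre was 254 bp from that of an element called in other populations. The promoter element of Krt83, a hair keratin gene, scored 36.3 and 29.3 in iMK, 7.97 in LSK replicate 1, 3 in CFUMK replicate 1 and 2.10 in GMP replicate 1, and lay 1781 bp from the next element. Ifitm6, an interferon-induced transmembrane gene, had 35.8 and 26.7 in iMK and 16.3 in LSK replicate 1, with no peak in the other 17 primary libraries. Only Pip4k2b, a phosphoinositide kinase gene with 25.2 and 18.9 in iMK, and Actg1, which encodes gamma actin and had 20.6 and 21.1, had no peak in any other primary library among the 20 highest promoter elements. Of these 20, 13 lay within 400 bp of another element, 9 held a peak of LSK replicate 1 and 1 a peak of LSK replicate 2.

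The strongest distal elements were mostly found in LSK replicate 1 as well. Of the 20 highest, 4 had a neighbour within 400 bp, and 15 held a peak of LSK replicate 1, 4 of GMP replicate 1 and none of LSK replicate 2. The element in an intron of Acod1, which makes itaconate in activated macrophages, scored 39.3 and 38.9 in iMK, 29.5 in GMP replicate 1, 24.4 in LSK replicate 1, 19 in CFUMK replicate 1 and 12.5 in CMP replicate 2. Each of these other populations had the peak in 1 library and not in the other. By contrast the element nearest to Irf2bp2, a gene for a transcriptional corepressor, scored 33.5 and 29.8 in iMK and held no peak in any other library. Alcam, which encodes a cell adhesion molecule, with 31.7 and 30.7, and Rbm38, which encodes an RNA-binding protein, with 35.7 and 26.1, had the other elements without such a peak among the 20. The printed Slc17a9 and Sdccag8 elements ranked below these 20 and were chosen for their PU.1 sequence. The element nearest to Slc17a9, a vesicular nucleotide transporter gene, scored 31.2 and 26.9 in iMK, 9.31 in MEP replicate 2, and 6.43 and 6.50 in G1E-ER4+E2. The Sdccag8 element, in a gene for a centrosomal protein, scored 25 and 24.2 in iMK, 14.4 in GMP replicate 2 and 11.4 in G1E replicate 2.

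PU.1 sequences were gathered at the iMK-only elements relative to the surrounding DNA. The windows of that DNA, 10 kb away, were not matched for base composition, and its part in the motif shares was not tested. Of the 7284 distal iMK-only elements, 646 (8.87%, exact Clopper-Pearson 95% interval 8.23% to 9.55%, for counting error only) held GAGGAAGT in their central 200 bp, against 1.22% of windows 10 kb away, 9.93% of the shared distal iMK elements and 7.31% of all distal primary elements. Matches gathered at the centre, with 1.65 and 2.05 per 100 elements in the middle 20 bp bins and 0.11 to 0.22 per 100 in bins 110 to 130 bp away. Smaller rises lay further out, with 0.52 per 100 at -250 bp and 0.37 per 100 at -270, -230 and 270 bp. Among the own elements of the other populations the share was highest in GMP (10.6%), then CMP (7.43%), LSK (6.93%), NEU (6%), CFUMK (4.38%) and MON (3.51%), and it was 0.836% in MEP, 1.15% in CFUE and 1.03% in ERY. The iMK-only share ranked 2 of 10, 4.22 points above their mean of 4.65% ± 3.39 (SD over 9 sets, two-sided exact permutation p = 0.5, Benjamini-Hochberg adjusted p = 1 over 21 motifs). The difference was 1.38 points without iMK replicate 1 and 1.19 without iMK replicate 2, when the calls of 1 library stand for iMK.

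**Figure D3:**
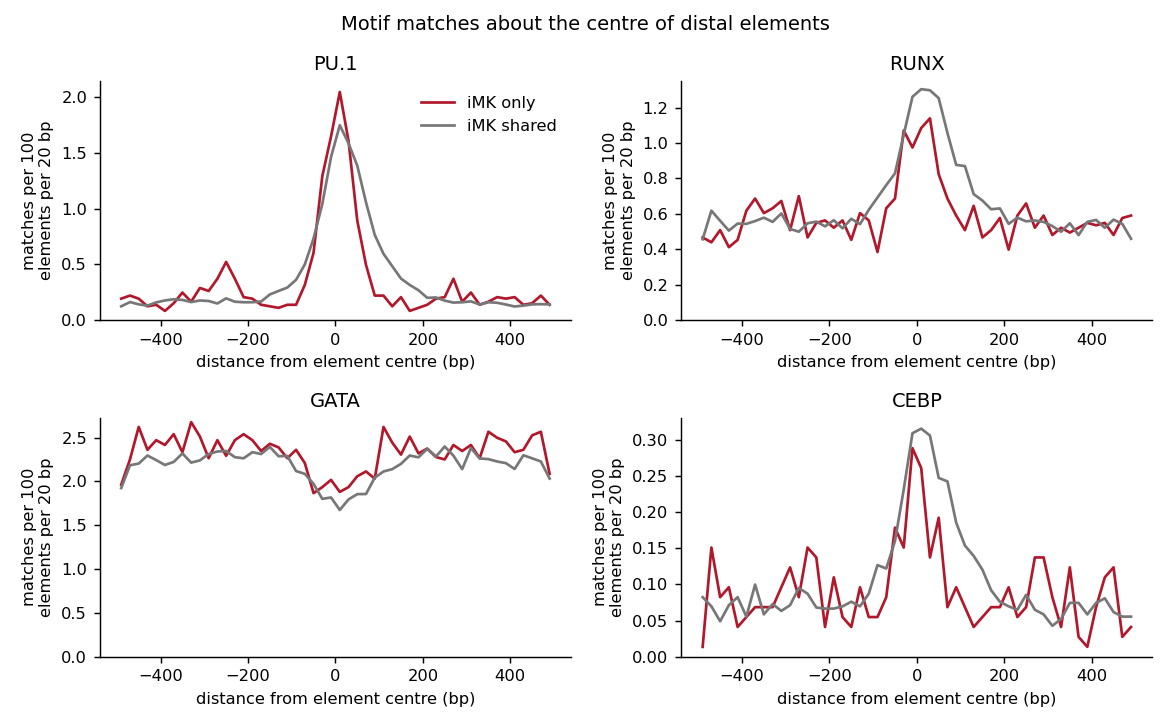
Matches per 100 distal elements per 20 bp (y axis) by distance from the element centre (x axis, bp) for PU.1, RUNX, GATA and CEBP, in iMK-only and shared iMK elements. PU.1 matches of the iMK-only elements peak at the centre (2.05 per 100 elements). Their GATA matches are fewer in the middle bins (2.02 and 1.88) than 110 bp away (2.27 and 2.62). The shared elements show a like dip (1.82 and 1.67 against 2.29 and 2.11).

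The FLI1/ERG sequence CAGGAAGT, read by ETS factors of stem cells and megakaryocytes, was in 7.13% of the distal iMK-only elements, against 1.40% of windows 10 kb away and 6.90% of the shared elements. It ranked 3 of 10 after GMP (7.38%) and NEU (7.37%), with LSK at 7.07% and CMP at 6.98% just after it, and CFUMK had 3.14%. A joined PU.1-IRF site was in 4.31%, against 1.92% of the windows, and in 6.59% of the GMP-only elements (exact permutation p = 0.2, adjusted p = 1). CEBP sequences (TTGCGCAA or TTGTGCAA) were in 1.44%, against 0.522% of the windows, 4.55% of the GMP-only elements and 0.317% to 1.17% of the other sets.

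GATA sequences, read by the factor central to megakaryocytes and erythroid cells, were not more frequent in iMK-only elements than around them. They were in 1240 of 7284 distal iMK-only elements (17.0%, exact Clopper-Pearson 95% interval 16.2% to 17.9%, for counting error only). The share was 22.2% in the windows 10 kb away, 16.4% in the shared iMK elements and 23.5% in all distal primary elements. The middle 20 bp bins held 2.02 and 1.88 matches per 100 elements, fewer than the 2.27 and 2.62 of bins 110 bp away. The shared iMK elements had a like dip, with 1.82 and 1.67 against 2.29 and 2.11. MEP-only elements held GATA sequences at 54.3%, CMP-only at 30.7% and CFUMK-only at 25.4%, and MON-only, with 10.5%, the least. The difference of -4.07 points from the mean of the other 9 sets, 21.1% ± 14.2 (SD), gave an exact permutation p = 0.900 and an adjusted p = 1. The TAL1-GATA composite was in 0.618% of the iMK-only elements, 0.577% of the windows and 3.91% of the MEP-only elements.

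**Figure D4:**
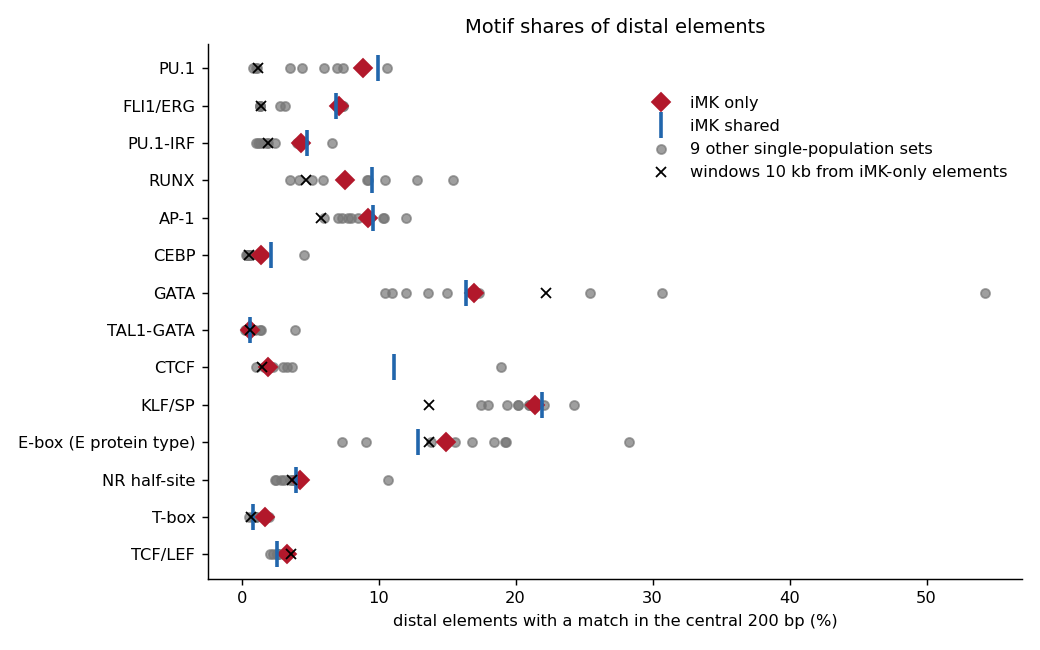
Percent of distal elements with a match in the central 200 bp (x axis) for 14 of the 21 motifs (y axis), in iMK-only elements, shared iMK elements, the other 9 single-population sets and windows 10 kb from iMK-only elements. PU.1 (8.87%) lies far above its windows (1.22%), GATA (17.0%) below them (22.2%), and CTCF (1.89%) far below the shared elements (11.1%).

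CTCF sites, bound by the insulator protein CTCF, were rare in the iMK-only elements. They were in 1.89% of them, close to the 1.46% of the windows, against 11.1% of the shared iMK elements and 18.9% of the CFUMK-only elements. The own elements of the other 8 populations held them at 1.05% (MON) to 3.68% (ERY). RUNX sequences (TGTGGTT) were in 7.52%, against 4.69% of the windows and 9.52% of the shared elements, with CMP-only elements highest at 15.4%. AP-1 (TGANTCA) was in 9.20% against 5.76% of the windows, KLF/SP (CCNCNCCC) in 21.4% against 13.7%, and both were near the shared values of 9.56% and 21.9%. The T-box sequence AGGTGTGA, read by T-bet and Eomes of T and NK cells, was in 1.74%, against 0.701% of the windows and 0.854% of the shared elements, and ranked 2 of 10 after CFUE (1.97%). TCF/LEF (CTTTGAT) and GABP/ELF (CCGGAAGT) had a higher share in iMK-only elements than in each of the other 9 sets. TCF/LEF was in 3.34% against 2.09% to 3.14% in the other sets (exact permutation p = 0.100, the smallest possible). It was in 2.61% of the shared iMK elements and 3.57% of the windows. GABP/ELF was in 0.522% (38 elements, exact Clopper-Pearson interval 0.369% to 0.715%, for counting error only). The other sets had 0.125% to 0.504% (exact permutation p = 0.2). The GMP-only (0.504%), CMP-only (0.475%) and LSK-only (0.458%) elements came next, and the interval does not measure the spread between populations. The windows had 0.151%, and the shared iMK elements had 0.591%, above the iMK-only share. Adjusted by Benjamini-Hochberg over the 21 motifs, the exact permutation tests gave p = 1 for each, in a design of 1 set against 9 that cannot reach 0.05.

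Sequence content was also read by the strength of the iMK-only elements and by their neighbours. Divided into 4 classes of rising score, PU.1 shares were 8.03%, 9.72%, 9.44% and 8.27%, and promoter shares 9.80%, 11.4%, 14% and 19.1%. The 2460 elements with no peak in another primary library had PU.1 at 8.54% and GATA at 19.3%. Those with a peak of GMP replicate 1 had PU.1 at 10.4% and PU.1-IRF at 6.65%, while those with a peak of LSK replicate 1 had 6.25% and 1.45%, with the E-box CACCTG at 19.1% against 14.9% of all distal iMK-only elements and 13.2% of all distal primary elements. PU.1 was in 10.5% of the elements that lay over 1 kb from any other primary element and in 6.02% of those within 1 kb. These are descriptions of overlapping classes.

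The G1E lines, whose libraries were not used to choose the elements, had peaks at few of them. A reproducible peak of G1E was in 86 of the 8426 iMK-only elements (1.02%), against 20.8% of the shared iMK elements and 12.7% of all primary elements. G1E-ER4+E2 had one in 83 (0.985%), against 25.2% of the shared and 15.6% of all. By library the shares were 1.28% and 1.65% in G1E and 1.15% and 1.60% in G1E-ER4+E2. Low shares were common to elements of 1 population, with G1E between 0.539% (MON) and 6.85% (MEP) over the other 9 sets. The 138 iMK-only elements called in either line held GATA sequences in 42.6% and PU.1 in 4.26% of the 94 that were distal, against 17.0% and 8.87% of all distal iMK-only elements. The cell lines were the shallowest libraries, at 22.3% to 27.0% of the deepest, and their part in these shares was not tested.

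The iMK label was checked against promoters of marker genes, where a peak centre within 500 bp of a start counts as a call. Over all 21911 protein-coding genes, 61.8% and 62.7% had one in the iMK libraries, against 48.9% (ERY replicate 2) to 68.3% (GMP replicate 1) in the other primary libraries. Of 30 megakaryocyte and platelet genes, 19 and 21 had a promoter peak in the iMK libraries, against 24 and 24 in CFUMK, 26 and 23 in LSK, 24 and 26 in CMP, 24 and 20 in GMP and 19 in both MEP libraries. Called in both iMK libraries were Itga2b, Itgb3, Pf4, Vwf, Clec1b, P2rx1, P2ry12, Nfe2 and Fli1 among others. Among the genes without a promoter peak in either iMK library were Gp1ba, the platelet receptor for von Willebrand factor, Gp6, the collagen receptor, Ppbp, Treml1, Tubb1, Selp and Myl9. Gp1bb, Gp5 and Gp9 had one in iMK replicate 2 and Mmrn1 in replicate 1. Of 23 granulocyte genes, 20 had a promoter peak in both iMK libraries, against 20 and 9 in LSK, 19 and 18 in GMP, 19 and 16 in CFUMK and 12 in both NEU libraries, with Elane, Fpr1 and Fpr2 the ones without it in iMK. All 19 monocyte genes were called in both iMK libraries, against 18 in both GMP libraries, 18 and 12 in LSK and 17 in each CMP and CFUMK library. T and NK cell genes numbered 21 and 22 of 30, against 19 and 21 in MON and 20 and 15 in GMP. Mast, basophil and eosinophil genes numbered 14 of 20 in both, against 12 or fewer in every other library. In the iMK libraries erythroid genes numbered 15 and 16 of 19, and stem and progenitor genes 11 and 12 of 15. Dendritic cell genes numbered 14 and 13 of 17, endothelial genes 12 of 16 in both and macrophage genes 21 and 24 of 30. B and plasma cell genes numbered 12 and 11 of 23, and marrow stroma and bone genes 11 and 10 of 23. The 18 housekeeping genes were called in all 24 libraries. The check thus did not single out iMK as megakaryocyte. Both iMK libraries had fewer megakaryocyte and platelet promoters than each CFUMK, LSK and CMP library. They had more monocyte promoters than any other library, and no other library had more granulocyte promoters. Fewer open cells and weaker opening per cell cannot be told apart in such bulk libraries, and the part of other cell types in the iMK-only elements was not tested.

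**Figure D5:**
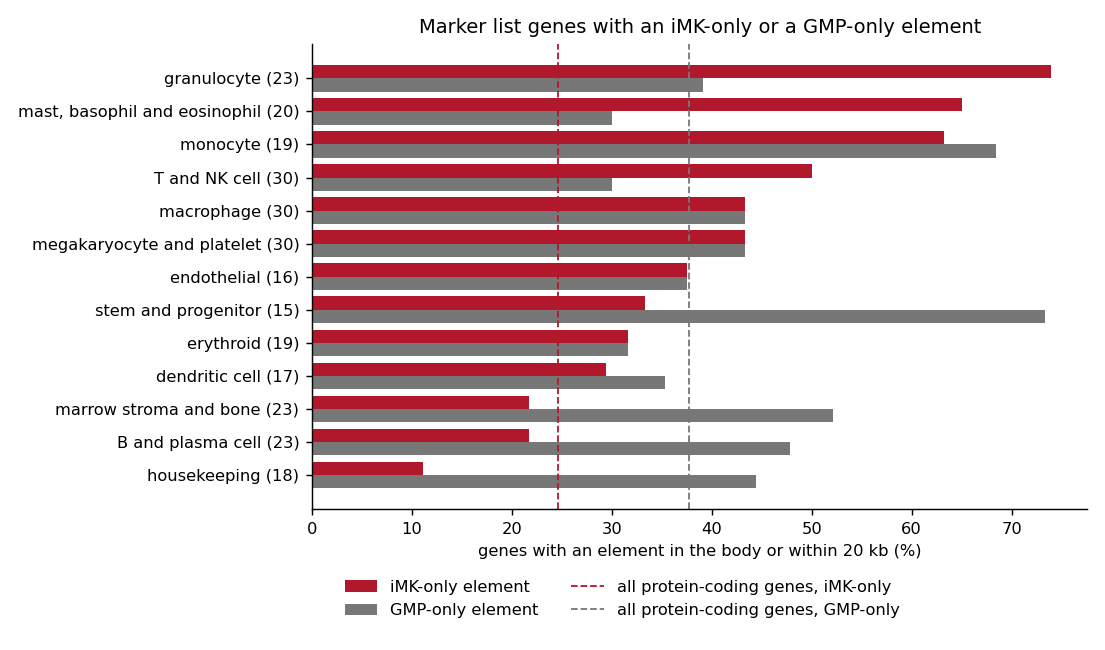
Percent of the genes of each marker list (number of genes in parentheses) with an iMK-only or a GMP-only element in the gene body or within 20 kb (x axis), with dashed lines for all protein-coding genes. The granulocyte list is at 73.9% for iMK-only elements, where all genes are at 24.6%.

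Granulocyte genes had the highest share of genes with an iMK-only element among the 13 lists. An iMK-only element lay in the body or within 20 kb of 5388 of 21911 protein-coding genes (24.6%), and of 17 of 23 granulocyte genes (73.9%). Among these genes Elane and Prtn3 were counted for 1 shared element, and so were Fpr1 and Fpr2. The list had 32 iMK-only among 289 primary elements (11.1%), against 3.38% over all genes. The same list had an own element of GMP at 9 genes, MEP at 6, NEU at 5, CMP and CFUMK at 4 each, MON and ERY at 3, LSK at 2 and CFUE at none. Over all protein-coding genes an own element of GMP was at 37.8%, MEP at 27.5%, CMP at 23.5%, CFUMK at 21.1%, CFUE at 18.3%, MON at 16.3%, ERY at 16.0%, LSK at 12% and NEU at 9.75%. Counted once, the list's iMK-only elements numbered 30, with median scores of 10.0 and 8.77 and 22 in the highest of 4 score classes. Of these, 17 (56.7%, against 19.8% of all iMK-only elements) held a peak of LSK replicate 1 and none a peak of LSK replicate 2. A peak of NEU was in 8, against 1125 of all 8426 iMK-only elements. No peak of another primary library was in 8, against 2460 (29.2%) of all. Without LSK replicate 2 the list had 10 genes with an iMK-only element and no longer led, as the mast cell, basophil and eosinophil list had 12 of 20, the T and NK cell list 14 of 30 and all genes 20.4%. Without LSK replicate 1 it had 17. With the highest 84341 peaks of each library it had 18.

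At the promoter of Retnlg, which encodes a resistin-like protein of neutrophils, the element whose sequence is given scored 32.0 and 26.4 in iMK, 15.1 in LSK replicate 1 and 2.58 in CFUMK replicate 1, and had no peak in the other 16 primary libraries. The promoter element of Ly6g, the antigen that defines mouse neutrophils, scored 10.2 and 9.06 in iMK, 4.89 in NEU replicate 1, 3.83 in LSK replicate 1 and 2.47 in CMP replicate 1. For both genes the only elements at the promoter were iMK-only. The element near Camp, the cathelicidin antimicrobial peptide gene, lay 4947 bp from its start and scored 32.1 and 30.5 in iMK and 14 in LSK replicate 1, with no other primary peak.

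The granule and migration genes of neutrophils described next had 1 to 4 iMK-only elements each. Mmp9, gelatinase B, had 4, of which the one printed scored 22.5 and 10.8 in iMK, 9.57 in LSK replicate 1, 6.62 in NEU replicate 1, 5.94 in GMP replicate 1 and 4.29 in CFUMK replicate 1. Ltf, lactoferrin, had 3, and the one 754 bp from a start scored 10.9 and 9.16 in iMK and had no peak elsewhere. S100a9, a calprotectin subunit, had a promoter element with 24.8 and 15.2 in iMK, 16.4 in LSK replicate 1 and 7.07 in NEU replicate 2. Mpo, myeloperoxidase, had 4, and the one 112 bp from a start scored 6.83 and 4.28 in iMK with no other primary peak. Cxcr2, a chemokine receptor, had an intron element with 9.61 and 10.9 in iMK and none elsewhere. Padi4, the enzyme that citrullinates histones, had 2, the higher with 15.3 and 12.1 in iMK, 9.41 in LSK replicate 1 and 4.89 in NEU replicate 1. LSK replicate 2 had no peak in these examples.

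Megakaryocyte and platelet genes had iMK-only elements at 13 of 30 (43.3%), which covered 22 of 507 primary elements (4.34%, against 3.38% over all genes). Of these 22, 7 lay at Cd226 alone, so the share rests in large part on 1 gene. The same list had a GMP-only or MEP-only element at 13 genes each and a CFUMK-only element at 9, beside the 37.8%, 27.5% and 21.1% over all genes. The 22 elements had median scores of 5.24 and 5.92, below the 10.0 and 8.77 of the granulocyte list and above the 4.17 and 4.28 of all iMK-only elements. Of them 10 held a peak of GMP replicate 1, 9 of CFUMK, 3 of LSK replicate 1, and 2 no other primary peak. Over all 8426 iMK-only elements these numbers were 2552 (30.3%), 1486, 1670 (19.8%) and 2460 (29.2%). Counting only elements with no peak of another primary library, 2 of the 30 genes had one.

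Cd226, a receptor of platelets and lymphocytes, led this list with 7 iMK-only among 21 primary elements (33.3%). Their scores ran from 3.16 to 7.21 in iMK replicate 1 and from 3.19 to 10.6 in replicate 2. Thbs1, thrombospondin of the platelet alpha granule, had 2, with 5.56 and 5.08 and with 4.93 and 4.28 in iMK. One of these held a peak of GMP replicate 1 (2.29), and the other no peak elsewhere. Fli1, an ETS factor of megakaryocytes, had 2 at an internal promoter, with 11.6 and 12.9 and with 14 and 14.9 in iMK. The first of these had 21.9 in GMP replicate 1, 18 in LSK replicate 1, 12.4 in CFUMK replicate 1 and 9.08 in NEU replicate 2, without a call in any partner library. Gp1ba had 1 within 20 kb, 14176 bp from its start and nearest to Pfn1, the profilin gene, with 20.5 and 15.6 in iMK, 12.9 in NEU replicate 1, 12.4 in MON replicate 1 and 11.5 in GMP replicate 1.

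T and NK cell genes had iMK-only elements at 15 of 30 (50%), and mast cell, basophil and eosinophil genes at 13 of 20 (65%). Their elements were weaker than those of the granulocyte list, with median scores of 4.11 and 5.18 over 26 elements and 3.79 and 3.49 over 19, and 3 and 1 of them in the highest of 4 score classes. With the highest 84341 peaks of each library these lists had 2 and 5 such genes. Tcf7, which encodes the T cell factor TCF1, had 5 iMK-only among 16 primary elements (31.2%), with scores between 2.91 and 8.09 in iMK replicate 1 and between 3.09 and 5.38 in replicate 2. Ifng, interferon gamma, had 2, and the one 113 bp from its start scored 5.06 and 7.17 in iMK and 2.66 in MON replicate 2. Alox15, arachidonate 15-lipoxygenase, had a promoter element with 8.73 and 4.38 in iMK, 4.07 in MEP replicate 2, 3.32 in CMP replicate 1 and 2.43 in CFUMK replicate 1. Ear1 and Epx, which encode eosinophil granule proteins, had promoter elements with 6.83 and 5.28 and with 4.81 and 3.19 in iMK.

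Monocyte genes had iMK-only elements at 12 of 19 (63.2%), macrophage genes at 13 of 30 (43.3%), endothelial genes at 6 of 16 (37.5%), stem and progenitor genes at 5 of 15 (33.3%), erythroid genes at 6 of 19 (31.6%) and dendritic cell genes at 5 of 17 (29.4%). B and plasma cell genes and marrow stroma and bone genes had them at 5 of 23 each (21.7%), and housekeeping genes at 2 of 18 (11.1%). Over all protein-coding genes the share was 24.6%. GMP-only elements lay at 13 monocyte and 13 macrophage genes, beside 37.8% over all genes. MON-only elements lay at 11 monocyte and 5 macrophage genes, beside 16.3% over all genes. In the iMK-only share of their primary elements, the macrophage (5.87%), monocyte (5.48%), endothelial (5.24%), marrow stroma and bone (4.36%) and stem and progenitor (3.53%) lists lay above the 3.38% over all genes. The B and plasma cell (2.72%), dendritic cell (2.49%), erythroid (2.09%) and housekeeping (0.985%) lists lay below it. Of the 15 iMK-only elements of the endothelial list, 8 lay at Erg. Kit held 7 of the 14 of the stem and progenitor list. The shares of these lists thus rest in large part on 1 gene each. Csf1r, the receptor of the macrophage growth factor CSF1, had an element with 8.35 and 10.3 in iMK and 11.6 in MON replicate 2. Slc11a1, a metal transporter of phagosomes, had a promoter element with 22.8 and 16.4 in iMK and 21.8 in GMP replicate 1. Gata2, a stem and progenitor factor, had 2, with 3.79 and 6.08 and with 6.20 and 6.18 in iMK.

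At 84 of the 15047 genes with any primary element within 500 bp of a start, the only promoter elements were iMK-only. Krt83 (36.3 and 29.3), Retnlg (32.0 and 26.4), Lin28a, a regulator of the let-7 microRNAs (16.9 and 13.2), and Hsf4, a heat shock factor of the lens (15.7 and 13.8), had the highest scores. Genes of lymphocytes and eosinophils were among them, grouped here after their values were seen. Xcl1, a chemokine of NK and T cells, had 4.68 and 7.07, Klra3, an NK receptor, 4.05 and 7.87, and Klrc1, another, 4.30 and 3.59. Il2, interleukin 2, had 3.92 and 4.18, and Ear6, of the eosinophil ribonuclease family, 8.35 and 6.08. Sparc, which encodes osteonectin and is stored in platelets, had 7.97 and 12.3. Olfactory receptor genes, whose products detect odorants, were on the list too, from Olfr961 with 4.93 and 8.97 to Olfr611 with 2.15 and 1.79.

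Genes with the most iMK-only elements were mostly long. Gm20388 had 39 and Fgfr2, a fibroblast growth factor receptor, 21, but the annotation spans 4435 kb and 2961 kb there and takes in many other genes. Sox5, a transcription factor gene, and Pde4d, a cyclic AMP phosphodiesterase gene, had 13 each, of 130 and 185 primary elements, and Hs6st3, a heparan sulfate sulfotransferase gene, 10 of 45. Erg, the ETS factor of stem cells and megakaryocytes, had 8 of 59 (13.6%). One of them, 7873 bp from a start, scored 13.7 and 11.1 in iMK and 18.8 in GMP replicate 1. Another, 32932 bp from a start, scored 9.74 and 15.1 in iMK and 8.61 in GMP replicate 2. In all, 3730 genes had 1 iMK-only element, 1530 had 2 to 4 and 128 had 5 or more.

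By share of the elements of the locus, Cd55, a complement regulator, came highest among genes with at least 5, with 5 iMK-only of 11 primary elements (45.5%). Habp2, a hyaluronan-binding serine protease gene, had 6 of 14 (42.9%), Pwp1 5 of 12 (41.7%), Ate1, an arginyltransferase gene, 7 of 18 (38.9%) and Abca6, a transporter gene, 6 of 16 (37.5%). Kit, the stem cell factor receptor that marks progenitors and mast cells, had 7 of 29 (24.1%). The Kit element 191 bp from a start scored 11.1 and 7.97 in iMK and 2.86 in NEU replicate 2, and 5.08 in G1E-ER4+E2 replicate 1. Its other 6 scored from 2.53 to 6.07 in iMK replicate 1 and from 2.79 to 5.28 in replicate 2. These shares were used to choose the loci and are given as descriptions.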

How the data were processed

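ATAC-seq peaks were taken from 24 libraries, 2 for each of 12 mouse populations. By the methods of the study and the processing notes of the submitters, the authors trimmed reads to a common short length, aligned them to mm10 with Bowtie 0.12.8 and called peaks on each library by itself with HOMER. The processing notes also name bcl2fastq, bedtools and SAMtools 1.6, where the methods of the study name an earlier SAMtools version. The peak score was deposited without a stated unit and was used to rank peaks within a library and, from the step between low scores, to read relative depth. Read counts were not used here.

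Elements were built, annotated with GENCODE vM21 (132629 transcript starts) on GRCm38.p6 and searched for 21 motifs on both strands with Python 3.11.15, numpy 2.4.6, pandas 2.3.3 and scipy 1.17.1. A promoter element has its centre within 1 kb of a transcript start, and distal elements are all others. The 13 marker lists (284 entries, 280 genes, 279 matched) were written from general knowledge. Named elements are the 20 highest by mean percentile within 500 bp of a protein-coding start, at distal sites and at distal sites with PU.1, and named loci the 20 with most iMK-only elements and the 20 with the highest share among those with at least 5. Chosen after values were seen were the neighbour distances, the lymphocyte and eosinophil promoters and the examples within lists. The members, lists and tests were chosen with earlier results of these data known. The 10 single-population sets were compared by exact permutation, and p-values measure the spread of those sets. The overlap, score limit, peak number, promoter distance, motif window and locus flank were varied, and each library was left out. Scripts were checked on simulated data. No list of artefact regions was applied. Some withheld items are not reported here.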

Additional observations from a re-analysis of the deposited data

How the results depend on the processing

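The iMK-only count of 8426 was 3972 with the highest 84341 peaks of each library, 2460 with no peak in any other primary library, and 5067 over 1 kb from any other primary element, an alternative chosen after seeing the data. Leaving out 1 library gave 5905 to 34351. The promoter, PU.1 and GATA differences kept their sign under 8 alternatives each, and over left-out libraries ran from -7.14 to -2.00, from 1.19 to 5.14 and from -5.48 to -1.03 points. None passed the threshold in the exact test, which cannot go below 0.100.

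The G1E share moved to 0.755% without the lowest-scoring peaks, 1.89% at equal peak number and 0.650% with no other peak, and the G1E-ER4+E2 share to 0.503% and 2.06% under the first and second of these. Left-out libraries gave 0.573% to 1.05% and 0.501% to 1.13%. The granulocyte list had 6 genes with no other peak and 9 over 1 kb from other elements (left-out libraries 10 to 22). The megakaryocyte and platelet list had 2 with no other peak, 20 with 50 kb flanks, 8 with 5 kb flanks and 8 over 1 kb away (10 to 18). The T and NK cell list had 2 at equal peak number and 3 with no other peak (11 to 21), and the mast, basophil and eosinophil list 5 under each of those and 7 over 1 kb away (10 to 16). Of 280 values of the other lists and of all genes, over left-out libraries and alternatives, 220 stayed within 1.5 times. No direction turned round. No paired analysis was possible because the labels give library numbers without stating replicates or pairs, and the results come from sets of elements built on both libraries of a population, not from a test over samples. Peaks of low score are limited by depth, and no call at such depth does not show closed chromatin.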
